A study of Mus musculus with 82 samples.

Results

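The comparison asked whether alcohol drinking changed how mRNAs were divided between a synaptic fraction and the whole tissue of the extended amygdala. For each mouse and probe, the log2 signal of the total homogenate (TH) was subtracted from that of the synaptoneurosomes (SN), and this difference, called the SN enrichment below, was compared between 8 alcohol mice and 11 control mice. It used 38 of the 82 arrays of the series and 17265 of the 45281 probes of the array, which stood for 12277 genes. Probes were those kept in both of the deposited normalized tables of the alcohol comparison.

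The mice were female C57BL/6J mice, 2 months old, and the extended amygdala is a chain of forebrain nuclei involved in stress, reward and drinking. Alcohol mice chose for 30 days between a bottle of 20% ethanol and a bottle of water, both open for 24 h a day. Control mice had water alone in both bottles. SN and TH came from 1 homogenate of each mouse, and mRNA was read on BeadChips of the type Illumina Mouse WG-6 v2.0. The labels count the mice as separate animals, so the p-values below measure the spread between mice.

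Neurons send part of their mRNA into dendrites and axons, where it can be translated beside the synapse. Synaptoneurosomes are pinched-off pre- and postsynaptic endings, obtained by pressing a homogenate through fine filters, and they carry local mRNAs with fragments of the astrocyte processes around synapses. Chronic alcohol is known to alter glutamate signalling, immune genes and energy metabolism in brain, and local mRNA supply is a route by which synapses can change apart from the cell body.

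The SN array of control mouse 13 stood apart from the rest. Its median correlation with the other SN arrays was 0.968 over all 17265 probes, where the other 18 SN arrays had 0.986 to 0.991. The SD of its SN enrichment over probes was 0.435, against 0.247 to 0.312 in alcohol mice and 0.241 to 0.314 in the other controls. Leading genes, genes at the ends of a list and list medians that moved by over 1.5 times without it are given both ways where their value was not near 0. The medians of the GABA signalling, neuropeptide, endothelial and mural, splicing, translation factor and glucocorticoid-responsive lists lay just above 0 and were just below 0 without it, at -0.028 or closer to 0. The neuropeptide genes Npy, Sst, Penk and Cck passed the probe filter, and Crh did not. Penk was low, at 7.43 to 8.30 log2 units in TH, and passing the filter alone does not show which region was sampled. The endothelial and mural list was low in SN of both groups, with 17 of 19 genes called lower in alcohol mice (22.1% of all genes) and 16 of 19 in control mice (24.5% of all genes). The astrocyte list was high in SN, with 25 of 26 genes called higher in alcohol mice (20% of all genes) and 24 of 26 in control mice (23.7% of all genes).

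No mRNA passed the test for a changed SN enrichment. With limma over all probes, 0 of 17265 probes had an adjusted p under 0.05 (0% called), and the smallest adjusted p was 0.312. At an unadjusted p under 0.05 there were 2119 probes (12.3%), 1097 with higher (6.35%) and 1022 with lower (5.92%) SN enrichment in alcohol mice, a split of 1233 higher and 752 lower when arrays were scaled by median centring. The nominal share at this threshold, here and below, is 5% of probes (863) over both directions. Probes share arrays and are not independent, so a count above or below that share is a description only. The count called was 0 under each of the other settings tried, with smallest adjusted p-values from 0.0729 (without control mouse 2) to 0.708 (without the pairing by mouse). Without the pairing of SN and TH by mouse, the unadjusted count was 1196. Also, 0 of 12277 genes (0%) had SN enrichments that did not overlap between the groups, in either direction.

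The design bounds how large a missed change could be. The median SE of the difference between groups was 0.072 log2 units, and the median half-width of its 95% interval was 0.149, a ratio of 1.11. For 10699 probes (62%) the whole interval lay within 0.25 log2 units of 0, and for 16606 probes (96.2%) within 0.5. Measured differences were small, with a median size of 0.068, and 19 probes differed by more than 0.5 and 0 by more than 1. For a typical probe a difference under 0.149 was not told apart from 0 by this interval, which is not adjusted for the number of probes. Calls used p-values adjusted over all probes, so larger differences could also go uncalled. Atp5g2 (0.42), Rapgefl1 (-0.48) and Metrn (0.60), described below, were not called, each at an adjusted p of 0.312 in limma.

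Both groups had a strong division between fractions. In alcohol mice 6924 probes (40.1%) were called, 3360 higher (19.5%) and 3564 lower (20.6%) in SN, and in control mice 8057 (46.7%), 3901 higher (22.6%) and 4156 lower (24.1%). The groups shared 5349 calls of the same direction, which is 77.3% of the alcohol list and 66.4% of the control list. These counts rest on the joint scaling of the fractions: with each fraction quantile-normalized by itself there were 14112 calls in alcohol mice and 14362 in control mice. As a description across probes, which share arrays and signal levels, the mean SN enrichments of the groups correlated at 0.882, and at 0.913 without control mouse 13. The brain endothelial genes Flt1, a receptor of vascular growth factor, and Cldn5, a tight junction protein, were far lower in SN: Flt1 averaged -2.41 in alcohol mice and -2.18 in control mice, and Cldn5 averaged -2.07 log2 units in alcohol mice and -2.30 in control mice. The filament gene Gfap of astrocytes averaged 1.29 in alcohol mice and 1.08 in control mice.

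**Figure D1:**
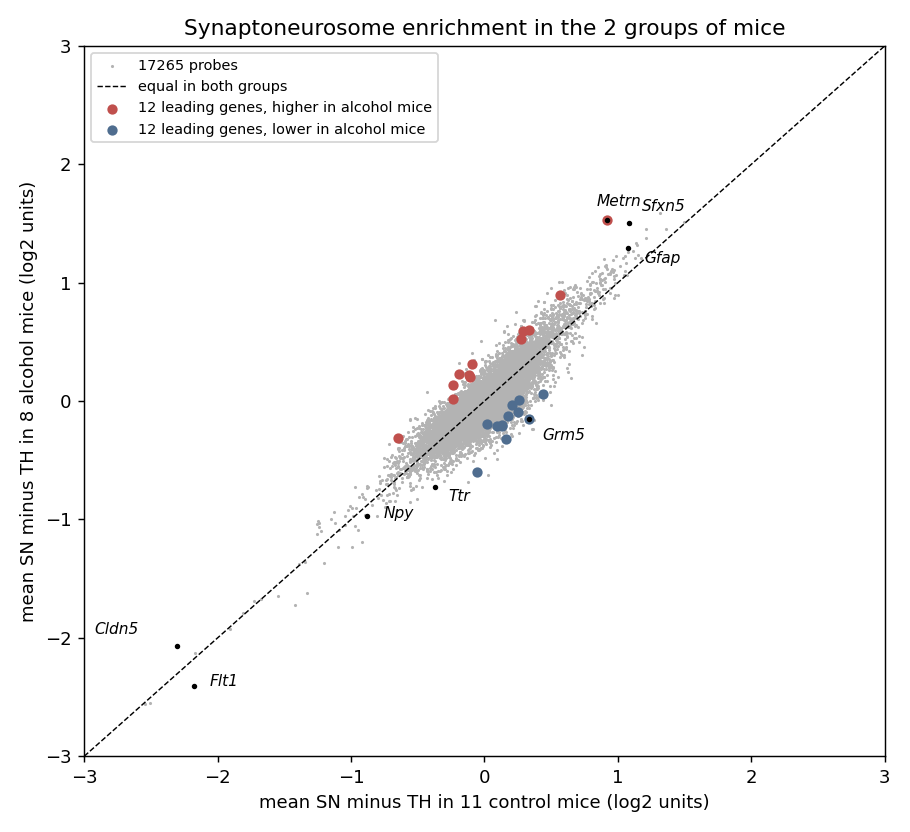
Mean SN enrichment (SN minus TH, log2 units) of each of 17265 probes in 8 alcohol mice (vertical axis) and 11 control mice (horizontal axis), with the dashed line where both are equal. The probes follow the line (r = 0.882), the 12 leading genes of higher SN enrichment in alcohol mice lie above it and the 12 of lower SN enrichment below it, and Flt1 and Cldn5 lie below -2 in both groups.

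Leading genes are the 12 genes with the smallest p of each direction, called or not. Only 3 probes were called in opposite directions in the groups, and each belongs to a leading gene. Opposite calls require a large difference between groups in the same fit, so this overlap adds no support. Their signs also rest on the joint scaling. With each fraction quantile-normalized by itself, 13211 of 14112 calls in alcohol mice and 13632 of 14362 in control mice were lower in SN. All 24 leading genes had an adjusted p of 0.312 in limma, so their values below describe these mice and are not calls. Picking genes by small p in these same mice favours groups that lie apart. Counts of mice beyond the control median therefore add no support.

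Atp5g2 encodes subunit c of the mitochondrial ATP synthase and had the smallest p. Its SN enrichment had a lowest, median and highest value of -0.021, 0.27 and 0.52 in alcohol mice, against -0.44, -0.26 and 0.036 in control mice. All 8 alcohol mice lay above the control median, and the groups overlapped only between the lowest alcohol mice and the highest controls. The difference was 0.42 (SE 0.081, 95% interval 0.251 to 0.587), a ratio of 1.34. Both fractions contributed: alcohol minus control was 0.24 in SN and -0.18 in TH. With the fractions scaled jointly, Atp5g2 was called higher in SN within alcohol mice (adjusted p = 0.0048) and lower in SN within control mice (adjusted p = 0.00493, limma).

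Rapgefl1, named for its likeness to exchange factors of the GTPase Rap, ran the other way. Its lowest, median and highest SN enrichments were -0.57, -0.32 and -0.13 in alcohol mice and -0.14, 0.099 and 0.67 in control mice. Every alcohol mouse lay below the control median, and the ranges met only at their ends. The difference was -0.48 (SE 0.096), a ratio of 0.716, with -0.29 in SN and 0.19 in TH. Its second probe gave -0.13. The remaining one of the 3 probes belongs to 9330164J24Rik, a transcript without a described role, with a difference of -0.34 (SE 0.082). That probe is dim, at 6.97 to 7.74 log2 units in SN, and its difference ran from -0.846 to -0.163 under the other settings.

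Metrn encodes meteorin, a secreted protein of glial and neural progenitor cells, and had the highest positive difference of all 17265 probes, 0.60. Its SN enrichment had a lowest, median and highest value of 1.15, 1.503 and 1.89 in alcohol mice and 0.58, 0.83 and 1.57 in control mice. It was thus an SN-enriched mRNA in every mouse, with alcohol mice in the upper part of the range. The difference had an SE of 0.127 and a ratio of 1.52, with 0.36 in SN and -0.24 in TH.

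The other leading genes with higher SN enrichment in alcohol mice had varied roles. Arpc3, a subunit of the Arp2/3 complex that branches actin filaments, was low in SN of both groups, with a median of -0.27 in alcohol mice and -0.64 in control mice (difference 0.33, SE 0.070). Kars, which loads lysine on its tRNA, had a median of 0.23 in alcohol mice and -0.078 in control mice (difference 0.31, SE 0.072), but its second probe gave 0.047. Tprkb, of the complex that modifies tRNAs at the base beside the anticodon, differed by 0.33, and its second probe by 0.14. Gm2a, the lysosomal activator of ganglioside breakdown, differed by 0.25, and Nudt2, a hydrolase of dinucleoside polyphosphates, by 0.25. C1qtnf5, a secreted protein related to complement C1q, differed by 0.26, and Set, a histone-binding inhibitor of protein phosphatase 2A, by 0.38. Their probes are of low level, at 7.43 to 7.99 and 7.68 to 8.28 log2 units in TH. Under the other settings C1qtnf5 ran from 0.151 to 0.448 and Set from 0.218 to 0.625. Mapbpip-pending and LOC381999, named here as on the array, differed by 0.41 and 0.33. The membrane protein gene Tmem47 differed by 0.31, with -0.033 on its second probe and 0.199 to 0.442 under the other settings. In 11 of these 12 genes all 8 alcohol mice lay above the control median, and in Set 7 did, which the choice by p favours.

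Leading genes with lower SN enrichment in alcohol mice included genes of the postsynapse. Grm5 encodes the metabotropic glutamate receptor mGlu5, which sits beside the postsynaptic density of excitatory synapses. Its SN enrichment had a lowest, median and highest value of -0.40, -0.19 and 0.26 in alcohol mice and -0.30, 0.36 and 1.02 in control mice. All 8 alcohol mice lay below the control median, and some controls lay within the alcohol range. The difference was -0.49 (SE 0.122, 95% interval -0.74 to -0.233), a ratio of 0.714, and -0.42 without control mouse 13. Alcohol minus control was -0.23 in SN and 0.26 in TH, so the fractions differed in sign.

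Sipa1l1, a postsynaptic regulator of Rap and of spine shape, had a median of 0.055 in alcohol mice and 0.47 in control mice (difference -0.38, SE 0.097). Gramd1b, a cholesterol carrier of the endoplasmic reticulum, had a median near 0 in alcohol mice (-0.004) and of 0.25 in control mice (difference -0.25, SE 0.056), and its second probe gave -0.066. Rcor1, a corepressor of neuronal genes in non-neuronal cells, differed by -0.33, but its other probes gave -0.10 and 0.031. Gnpda1, an enzyme of hexosamine breakdown, differed by -0.21, and its other probes by 0.001 and 0.028. The adhesion receptor gene Adgra1 differed by -0.31. The rest were LOC386330 (-0.54, and -0.46 without control mouse 13), 5730594E01Rik (-0.24), the array entry scl0004190.1_3 (-0.30) and Csnk2a1-rs3 (-0.34), a related sequence of a casein kinase 2 subunit whose probe may also read its parent gene. The probe of 5730594E01Rik is dim, at 6.97 to 7.58 in SN, and its difference ran from -0.658 to -0.105 under the other settings.

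**Figure D2:**
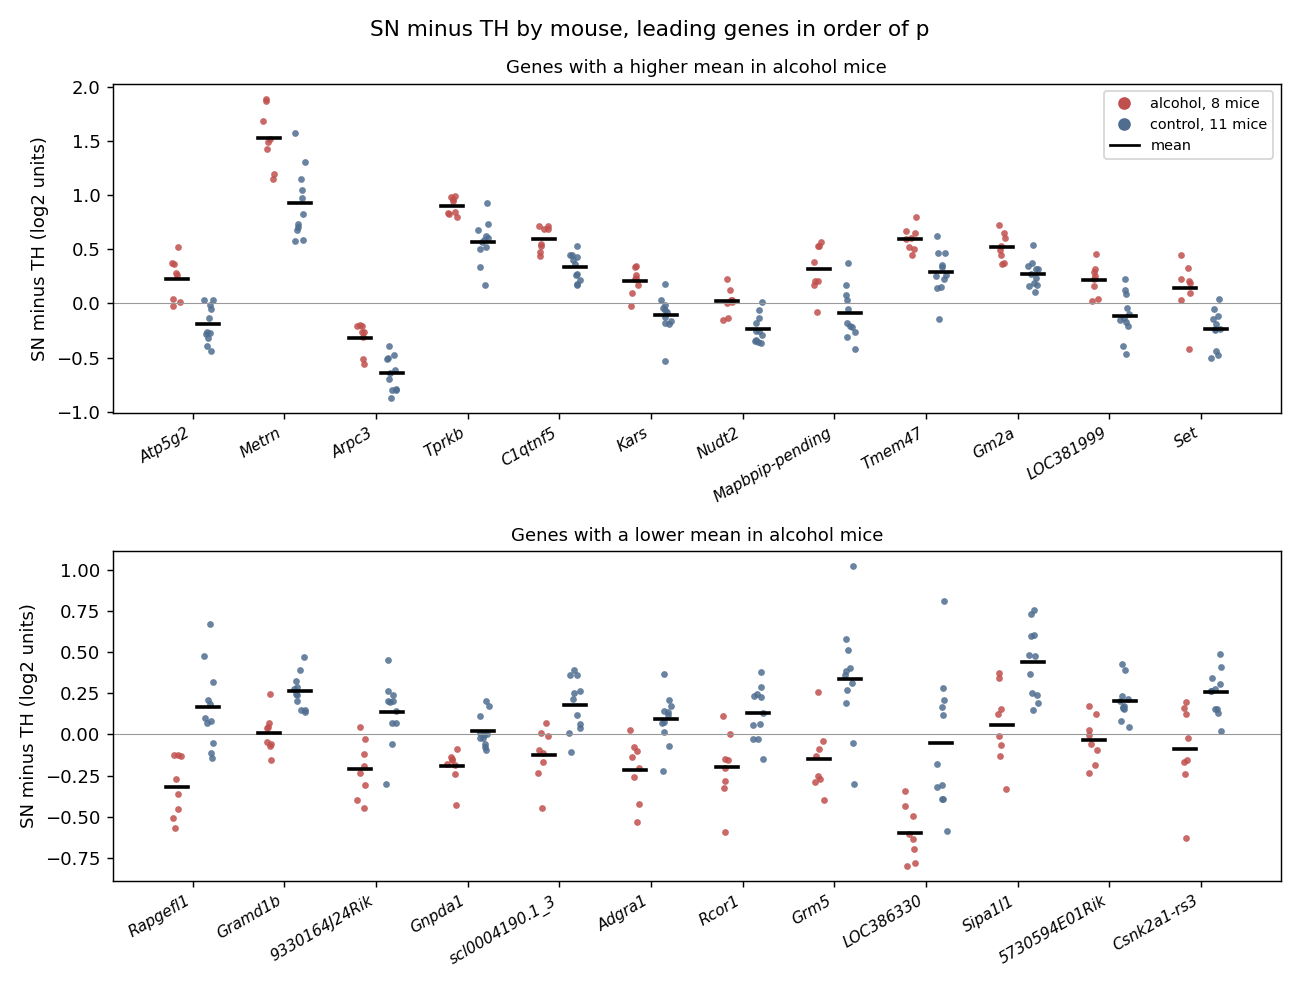
SN enrichment (SN minus TH, log2 units) of every mouse for the 12 genes of smallest p in each direction, with 8 alcohol mice at the left and 11 control mice at the right of each gene, and black lines at the means. The groups overlap in every gene, and Metrn lies at 1.15 to 1.89 in alcohol mice against 0.58 to 1.57 in control mice.

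Alcohol minus control had opposite signs in the fractions for 23 of these genes, with Tmem47 at 0.31 in SN and 0.001 in TH. A rule that picks extreme differences between fractions favours such genes. Neither fraction had a called probe by itself with limma: SN had 0 of 17265 (0% called; smallest adjusted p = 0.48; 1657 at an unadjusted p under 0.05, 9.6%) and TH had 0 (0% called; smallest adjusted p = 1; 533 unadjusted, 3.09%).

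**Figure D3:**
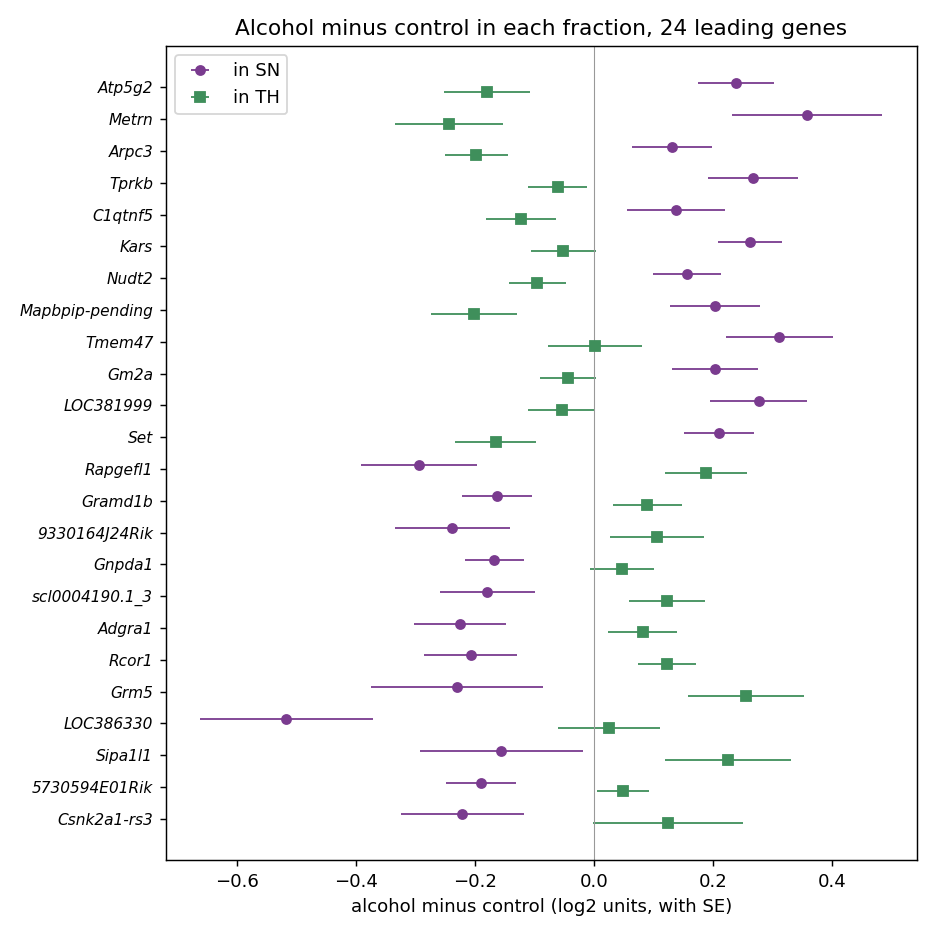
Alcohol minus control (log2 units, points with SE) in SN (circles) and in TH (squares) for the 24 leading genes, in order of p within each direction. LOC386330 at -0.52 and Metrn at 0.36 lie farthest out in SN, and the TH values run from -0.24 in Metrn to 0.26 in Grm5.

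Genes of ribosomes and of mitochondrial energy supply had mostly higher SN enrichments in alcohol mice, as measured values. Over all genes, 49.4% lay above 0 and 50.6% below, 6.13% had an unadjusted p under 0.05 on the higher side and 6.46% on the lower side, and the median difference was -0.0013. None of the counts below holds a call at an adjusted p under 0.05 (0% over all genes), and no test was made of a list. Genes of a list were read on the same arrays and are not independent, so the counts are descriptions.

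Cytosolic ribosomal proteins build the translating ribosome, and their mRNAs are abundant in neuronal processes. Of the 70 measured, 64 had a higher and 6 a lower SN enrichment in alcohol mice (91.4% higher), with a median difference of 0.14, a ratio of 1.10. At an unadjusted p under 0.05 there were 27 on the higher side, from 0.136 to 0.333, and 1 on the lower. Large-subunit genes (38 of 42 higher, median 0.144) and small-subunit genes (26 of 28 higher, median 0.101) gave alike counts. The largest member was Rpl35a: its lowest, median and highest SN enrichments were 0.038, 0.56 and 0.995 in alcohol mice and -0.14, 0.11 and 0.72 in control mice (difference 0.33, SE 0.124, adjusted p = 0.359, limma). The smallest was Rpl23 at -0.25, but its other probes gave 0.039 and 0.053. Many ribosomal protein genes have processed copies that a probe may also read, so single members are uncertain.

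By mouse, the median SN enrichment of the ribosomal list ran from 0.088 through 0.287 to 0.399 in alcohol mice (lowest, median, highest) and from -0.053 through 0.174 to 0.337 in control mice. The ranges overlapped over most of their length, and control mouse 13 was at 0.083. Within groups, 60 of the 70 genes were called higher in SN in alcohol mice (20% of all genes) and 39 in control mice (23.7% of all genes). The fractions again differed: the median of alcohol minus control was 0.092 in SN and -0.033 in TH. Without control mouse 13 the median difference was 0.12, and under the other settings it ran from 0.109 to 0.187, with 61 to 66 genes higher.

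Nuclear-encoded genes of oxidative phosphorylation supply the respiratory chain and the ATP synthase of mitochondria. Of 67 measured, 58 had a higher and 9 a lower SN enrichment in alcohol mice, with a median difference of 0.12, a ratio of 1.09. At an unadjusted p under 0.05 there were 24 on the higher side, from 0.158 to 0.419, and 0 on the lower. The higher members were spread over complex I (30 of 34 genes), complex II (2 of 3), complex III (4 of 5), complex IV (9 of 10) and the ATP synthase (13 of 15). Of these mRNAs 25 were called lower in SN within alcohol mice (22.1% of all genes) and 48 within control mice (24.5% of all genes). By mouse, the list median ran from -0.148 through -0.086 to 0.026 in alcohol mice and from -0.379 through -0.164 to -0.050 in control mice. The lowest control was mouse 13, and without it the controls began at -0.330. The 8 genes of the mitochondrial genome were evenly split: 4 were higher and 4 lower, with a median of 0.0062, from mt-Nd5 at 0.37 to mt-Nd6 at -0.21.

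Other genes of protein synthesis and transport were split about evenly. Of 35 translation factors and tRNA synthetases 18 were higher and 17 lower (median 0.0037), from Eef2, the elongation factor of translocation, at 0.32 (0.17 without control mouse 13; other probes 0.15 and 0.39) to Eif4a2, a helicase of initiation, at -0.17 (other probes 0.23 and 0.14). Of 26 transport motor genes 12 were higher and 14 lower (median -0.0061). Dynll2 among them, a dynein light chain, had a difference of 0.60 (SE 0.185, adjusted p = 0.334, limma; 0.358 to 1.001 under the other settings), with a median SN enrichment of 0.68 in alcohol mice and 0.18 in control mice. Of 26 splicing factors 13 were higher and 13 lower (median 0.0029), led by Hnrnpa2b1, which binds dendritic transport signals in mRNAs, at 0.51 on its brighter probe and -0.080 on the other.

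Presynaptic and glutamate receptor mRNAs had mostly lower SN enrichments in alcohol mice, as measured values. Of 25 genes of synaptic vesicles and release, 2 had a higher and 23 a lower SN enrichment in alcohol mice, with a median difference of -0.14, a ratio of 0.907. At an unadjusted p under 0.05 there were 0 on the higher side and 10 on the lower, from -0.373 to -0.134. Among these 10 were Cplx1 and Cplx2, the complexins that clamp vesicle fusion, Nsf and Napb of the fusion machinery, the vesicle proteins Syn2, Syt1, Syt11 and Sv2a, and Sncb, the beta-synuclein. Cplx2 was the smallest member, with lowest, median and highest SN enrichments of -0.56, -0.096 and 0.29 in alcohol mice and -0.35, 0.32 and 0.83 in control mice (difference -0.37, SE 0.151, adjusted p = 0.363, limma). All 8 alcohol mice were below the control median, and the ranges overlapped widely. The highest was Rab3a, a vesicle GTPase, at 0.063, with -0.027 on its second probe.

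By mouse, the presynaptic list median ran from -0.297 through -0.232 to -0.167 in alcohol mice and from -0.354 through -0.100 to 0.039 in control mice, where 0.039 was mouse 13. Alcohol mice thus lay within the control range but in its lower part. The median of alcohol minus control was -0.10 in SN and 0.025 in TH. Under the other settings 1 to 5 genes were higher and the median difference ran from -0.167 to -0.095.

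Of 14 glutamate receptor subunit and receptor genes, 12 had a lower SN enrichment in alcohol mice and 2 a higher (median -0.12). Grm5 at -0.49 was the only one with an unadjusted p under 0.05. Gria3, an AMPA receptor subunit, and Grin1, the obligatory NMDA receptor subunit, were each at -0.15. Gria1, another AMPA receptor subunit, was the highest at 0.14, and its other probes gave 0.072, 0.021 and -0.11. Of 16 GABA signalling genes 8 were higher and 8 lower (median 0.0098), with Gabbr1, a subunit of the GABA-B receptor, highest at 0.30 (0.18 without control mouse 13). Gabra2 did not pass the probe filter.

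Postsynaptic and dendritic mRNAs had smaller differences. Camk2a, Shank3, Dlg4 and Homer2 are counted in both of these lists. Of 27 postsynaptic density genes 19 were lower and 8 higher (median -0.088, and -0.058 without control mouse 13), from Dlg4, the scaffold PSD-95, at 0.10 to Lrrtm1, a synaptic adhesion protein, at -0.31. Of 21 mRNAs known in dendrites 17 were lower and 4 higher (median -0.069), and 4 of them had an unadjusted p under 0.05, all lower. Ddn, a dendrite protein whose mRNA is a standard dendritic marker, had a median SN enrichment of 0.40 in alcohol mice and 0.49 in control mice (difference -0.22, SE 0.072, adjusted p = 0.338, limma). Camk2a, the alpha subunit of the synaptic kinase, had 0.46 in alcohol mice and 0.51 in control mice (difference -0.12, and -0.058 without control mouse 13, with 0.055 on its second probe). Shank3, a scaffold, differed by -0.19 (SE 0.181). The list as a whole was SN-enriched in both groups, with 14 of 21 genes called higher in alcohol mice (20% of all genes) and 15 of 21 in control mice (23.7% of all genes).

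Activity-dependent genes had mostly lower values, in a list that is not separate from those above. It shares Bdnf and Arc with the dendritic list and Homer1 with the postsynaptic list. Of 17 immediate early genes 15 were lower and 2 higher (median -0.096), with Egr4 at -0.22 and Bdnf at -0.17 under an unadjusted p of 0.05. Bdnf, the growth factor mRNA that moves into dendrites with activity, had lowest, median and highest SN enrichments of -0.39, -0.30 and -0.12 in alcohol mice and -0.42, -0.155 and 0.17 in control mice (SE 0.071, adjusted p = 0.365, limma). Of the 8 alcohol mice 7 lay below the control median. Arc, another dendritic early gene, differed by -0.16 (SE 0.114). Nuclear-retained noncoding RNAs, which mark nuclei, were lower in 7 of 8 genes, with a median of -0.30, and -0.19 without control mouse 13. Their list median by mouse ran from -0.772 through -0.350 to -0.216 in alcohol mice (lowest, median, highest) and from -0.720 through -0.335 to 0.704 in control mice, the highest being mouse 13. The middle values were alike, and the groups differed mainly in the upper end of the controls. The part of nuclear RNA in the early gene and receptor values was not tested.

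**Figure D4:**
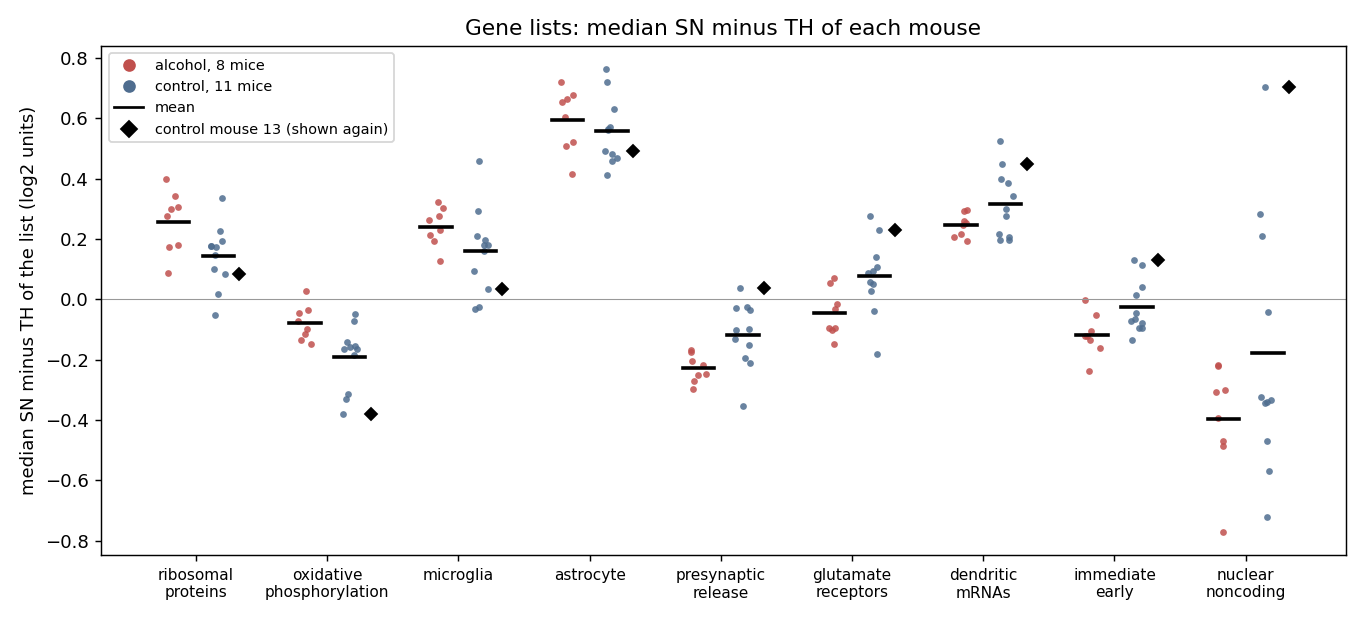
Median SN enrichment (log2 units) of 9 gene lists in every mouse, with 8 alcohol mice at the left and 11 control mice at the right of each list, black lines at the means, and control mouse 13 drawn again as a diamond. The groups overlap in every list, alcohol means are above control means for the ribosomal and oxidative phosphorylation lists, and below them for the presynaptic and receptor lists.

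Microglial and oligodendrocyte-lineage markers had mostly higher SN enrichments in alcohol mice, as measured values. Astrocyte markers did so less, at 61.5% higher against 49.4% of all genes. In bulk fractions, fewer fragments of a cell type and less RNA in each cannot be told apart. Of 23 microglial genes 17 were higher and 6 lower (median 0.11), with 5 on the higher side at an unadjusted p under 0.05: the complement genes C1qa, C1qb and C1qc, Gpr34 and Aif1. Aif1, the microglial protein Iba1, had lowest, median and highest SN enrichments of 0.80, 0.90 and 1.22 in alcohol mice and 0.21, 0.71 and 1.37 in control mice (difference 0.28, SE 0.114, adjusted p = 0.363, limma), with 0.056 on its second probe. All 8 alcohol mice were above the control median, within the control range. Cx3cr1 and P2ry12, which mark homeostatic microglia, gave -0.035 and 0.020, and Csf1r was the smallest at -0.145, with -0.003 on its second probe. By mouse, the microglial list median ran from 0.127 to 0.323 in alcohol mice and from -0.031 to 0.459 in control mice, so the alcohol range lay inside the control range.

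Of 26 astrocyte genes 16 were higher and 10 lower (median 0.059), and 0 had an unadjusted p under 0.05 in either direction on the probe that stands for each gene. Their list median by mouse ran from 0.416 to 0.721 in alcohol mice and from 0.413 to 0.763 in control mice. Apoe was highest at 0.23 and Gjb6, a gap junction protein, lowest at -0.13. Gja1 gave -0.10, and Aldoc -0.022 with 0.029 on its second probe. Gfap gave 0.21, and its second probe 0.28 (unadjusted p = 0.00667, limma). Slc1a2, the glutamate transporter, gave 0.053 (0.032 without control mouse 13), and its other probes -0.003 and 0.20 (unadjusted p = 0.0128 for the last, limma). Of 19 oligodendrocyte genes 14 were higher (median 0.10), from Mog, a myelin surface protein, at 0.28 to Enpp2, also a choroid plexus marker, at -0.18. Their list median by mouse ran from -0.157 to 0.057 in alcohol mice and from -0.29 to 0.544 in control mice. The median over these genes of the mean SN enrichment was -0.145 in alcohol mice and -0.105 in control mice. Mbp, the myelin protein with a transported mRNA, gave 0.076, and its other probes -0.084, 0.12 and 0.15. Of 9 precursor genes 7 were higher (median 0.11, and 0.073 without control mouse 13). Of 19 endothelial and mural genes 10 were higher and 9 lower (median 0.0027), with Cldn5 at 0.24 and Flt1 at -0.23, so vascular markers had no common direction. The neuron, glial and vascular values were measured on the same arrays as the synaptic lists, and their part in those lists was not tested.

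Regional neuron markers and peptides had no direction common to all lists. Thalamic and hypothalamic markers were mostly higher (75%) and cortical and hippocampal markers mostly lower (27.3% higher), against 49.4% higher over all genes. Of 23 neuropeptide genes and receptors 12 were higher and 11 lower (median 0.0012), from Avp, vasopressin, at 0.28 to Sstr2, a somatostatin receptor, at -0.22. TH levels of Avp ran from 6.96 to 10.95 log2 units in alcohol mice and from 7.18 to 10.16 in control mice. Alcohol mice 1, 3 and 6, with the highest TH levels, had Avp SN enrichments of -0.61, -0.30 and -0.75. The other alcohol mice had -0.23 to 0.28, and the part of the Avp level in its difference was not tested. Npy gave -0.090, Sst -0.17, Cck 0.088 and Penk 0.12. Of 15 striatal markers 7 were higher (median -0.026), of 11 cortical and hippocampal markers 3 were higher (median -0.076), and of 12 thalamic and hypothalamic markers 9 were higher (median 0.049). Ttr, the choroid plexus protein transthyretin, was lower in alcohol mice in both fractions by measured value (-1.67 in SN, SE 0.715, and -1.32 in TH, SE 0.745), and its SN enrichment differed by -0.35 (SE 0.338, and -0.18 without control mouse 9). TH levels of Ttr ran from 8.88 to 11.57 log2 units in alcohol mice and from 8.49 to 14.81 in control mice, with the wider spread among controls.

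Of 14 genes of ethanol metabolism, 9 were called higher in SN within alcohol mice (20% of all genes) and 8 within control mice (23.7% of all genes). Between the groups, 11 had a higher and 3 a lower SN enrichment in alcohol mice (median 0.059, and 0.030 without control mouse 13). Aldh2, the mitochondrial enzyme that clears acetaldehyde, had lowest, median and highest SN enrichments of 0.44, 0.79 and 1.05 in alcohol mice and -0.013, 0.555 and 0.86 in control mice. Of the 8 alcohol mice 7 lay above the control median. The difference was 0.29 (SE 0.102, adjusted p = 0.349, limma), with 0.24 in SN and -0.053 in TH. Adh5 and Gstm5 were the others with an unadjusted p under 0.05, at 0.27 and 0.24, and Aldh1b1 was lowest at -0.077.

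Of 17 ethanol-sensitive channel and adenosine genes 8 were higher and 9 lower (median -0.016), from the adenosine kinase gene Adk at 0.115 (0.26 on its second probe) to the calcium channel gene Cacna1a at -0.24 (-0.13 without control mouse 13, and -0.015 on its second probe). Of 22 cholesterol and lipid synthesis genes 15 were higher (median 0.047), with Fads2, Scd1 and Fdps at 0.32, 0.28 and 0.24 and Acaca at -0.15 under an unadjusted p of 0.05, and Scd2 largest at 0.44 (SE 0.241). Of 26 actin regulators 16 were higher (median 0.022), led by Arpc3 at 0.33 and Arpc1b at 0.33, 2 subunits of the same complex, with Arpc5 of that complex at -0.14 and Abi2 lowest at -0.21 (other probes 0.006 and 0.034). Innate immune genes (13 of 19 higher, median 0.015, Psmb8 at 0.145, Rela at -0.11), glucocorticoid-responsive genes (8 of 15, median 0.0093, Mt2 at 0.13, Zbtb16 at -0.15 and -0.092 without control mouse 13, Fkbp5 at -0.013) and chaperones (10 of 23, median -0.0069, Hspd1 at 0.23, Hsp90aa1 at -0.21) had medians near 0. Sfxn5, a mitochondrial carrier gene, was strongly SN-enriched and higher in alcohol mice (1.51) than in control mice (1.08), a difference of 0.42 (SE 0.144, adjusted p = 0.346, limma).

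Each mouse was also compared as a whole, by 2 measures planned for this purpose and 5 others, 7 in all. The SD of the SN enrichment over all 17265 probes, a measure of how far the fractions differ, was 0.2818 ± 0.0244 in alcohol mice (SD, n = 8) and 0.2945 ± 0.0515 in control mice (n = 11), and differed by -0.01262 (p = 0.63 by an exact two-sided permutation test over mice). The number of probes detected in SN minus that in TH (detection p under 0.01 over the whole array) was -1173 ± 285 in alcohol mice and -459.4 ± 691 in control mice, and differed by -713.3 (p = 0.0155 by the same exact test, 0.031 after adjustment over these 2 measures and 0.0763 after adjustment over all 7). It ran from -1471 to -742 in alcohol mice and from -1736 to 474 in control mice, so the alcohol mice lay within the control range. SN arrays detected 16340 ± 429 probes in alcohol mice and 16840 ± 497 in control mice, a difference of -507.5 (exact permutation test, p = 0.0316, 0.0763 after adjustment over all 7). TH arrays detected 17510 ± 256 in alcohol mice and 17300 ± 340 in control mice (SD). At a detection p under 0.05 the difference was -380.5 (exact permutation test, p = 0.133), so it depends on that threshold. The part of detection in the values of the gene lists was not tested.

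**Figure D5:**
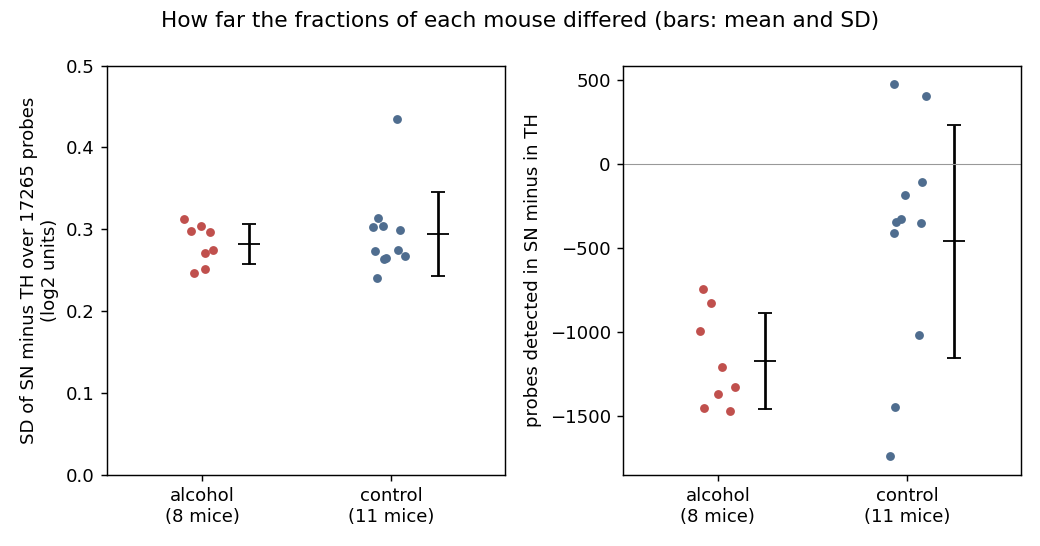
Left, SD of the SN enrichment over 17265 probes (log2 units), and right, number of probes detected in SN minus in TH, for 8 alcohol mice and 11 control mice, with bars at the mean and SD. SDs are alike but for control mouse 13 at 0.435, and detection differences are -1471 to -742 in alcohol mice against -1736 to 474 in control mice.

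The spread among mice was smaller in the alcohol group by measured value: the median SD of a probe's SN enrichment was 0.132 in alcohol mice and 0.166 in control mice, or 0.152 without control mouse 13. The median correlation of a mouse's SN enrichment profile with those of other mice was 0.612 to 0.70 in alcohol mice and 0.412 to 0.696 in control mice. Its mean was 0.6676 in alcohol mice and 0.5934 in control mice, or 0.6115 without control mouse 13, a difference of 0.07426 (exact permutation test, p = 0.0327, 0.0763 after adjustment over the 7 measures). It was not among the 2 planned measures, and the SD of probes was not tested.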

How the data were processed

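Per the file headers, the deposited signal files give each probe a mean bead intensity (linear, not normalized between arrays) and a detection p-value per array. The values in the authors' deposited normalized tables are on a log2-like scale and were made per fraction with lumi per the submitters' processing notes (version and transform not given in the sources used here). Columns of other samples numbered 0. Here log2 signals of the 38 arrays were quantile-normalized jointly. limma 3.58.1 in R 4.3.3 (lmFit, eBayes, Benjamini-Hochberg over all 17265 probes, adjusted p under 0.05) was run on SN minus TH of each mouse, so SN and TH are paired through the homogenate they share per the labels. Single values were compared by exact permutation over the mice (75582 arrangements). The TH arrays of control mice 11 and 12, titled as outliers, are not in the deposited signal files, and their SN arrays were left out.

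Genes are represented by the probe of highest mean level; 3662 had several. Of 12855 array symbols 10947 were current or could be updated using RefSeq names of the assembly GRCm38.p6. Named genes are the 12 of smallest p in each direction, the largest and smallest member of each of 30 lists, and a set of 30 genes of interest, of which Crh and Gabra2 were among those not kept. Some genes that the rule names are not reported here. Other members named were chosen after their values were seen. The comparison, members and lists were chosen with earlier results of these data known. The fit was tested on simulated data. Alternatives were other normalizations, a background correction, other probe filters, no pairing, other variance models, array weights and each mouse left out. Bead intensity limits the precision of dim probes, and the number of arrays limits it for all. Data were read with the R package data.table (version 1.17.8), and plots were made in matplotlib 3.10.9 under Python 3.11.15.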

Additional observations from a re-analysis of the deposited data

Results flagged for a closer look

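Of 99 values tested among alcohol mice for a sample far from the others, 6 passed the limit for 8 samples, where about 1 in 20 does so by chance (5%). Among the alcohol mice, mouse 6 had the lowest SN enrichment of 3 genes: -0.426 for Gnpda1, 0.155 for Adk and 0.531 for Aldoc. Alcohol mouse 3 had the lowest of Gabbr1 (-0.382) and of Eef2 (-0.142). Alcohol mouse 8 had the highest of Aldh1b1 (0.186). The gap to the next mouse was between 0.559 and 0.695 of the group's range in these genes. No cause was tested.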

How the results depend on the processing

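The count of probes with a changed SN enrichment was 0 under every setting run, and the alcohol effect within SN or TH also had 0 calls wherever it was refitted. The unadjusted count (2119) was 3823 over all probes of the array and ran from 1534 (without alcohol mouse 7) to 2904 (without control mouse 2). With median centring its split was 1233 higher and 752 lower, in place of 1097 and 1022. SN and TH are paired by mouse: with no replicate block the unadjusted count was 1196 (0 calls), and with the block as a random effect, chosen after seeing the data, 2140 (0 calls). Without moderation of the spread, also chosen after seeing the data, it was 1919 (0 calls).

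Calls within groups depend on the scaling between fractions. With each fraction quantile-normalized separately there were 14112 in alcohol mice (901 higher, 13211 lower) and 14362 in control mice (730 and 13632), and with the authors' values 15645 (758 and 14887) and 15591 (606 and 14985), by construction, since levels set across separately normalized tables are not comparable. With median centring there were 9317 (5839 and 3478) in alcohol mice and 10041 (6076 and 3965) in control mice. Leaving out a mouse gave 6174 to 7511 and 7468 to 8048 calls.

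With each mouse left out in turn, the difference in SD between groups ran from -0.018 to 0.00141, the sign turning without control mouse 13 (exact permutation p = 0.901). With other normalizations, probe filters and a background correction it ran from -0.0181 to -0.00768. The detection difference ran from -840.9 (without control mouse 8) to -619.9 (without control mouse 1), with exact permutation p from 0.00242 to 0.0289, and was -380.5 (p = 0.133) at a detection p under 0.05; the cause was not tested. Of 670 values of the 24 leading genes under 28 alternatives 0 changed sign, and of 2038 values of the other named genes 9 did, in 4 genes. Of all these values 0 were called. The choice of the 24 by small p in the same data makes sign changes unlikely, so their absence adds no support. The BeadChip as a block was not run, since the file headers used here do not name it.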
